A study of Mus musculus with 4 samples.

Results

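The kinetochore is the protein structure that ties each chromosome to the spindle at its centromere. The spindle checkpoint watches unattached kinetochores and holds back the anaphase-promoting complex (APC/C), the ubiquitin ligase whose activity lets sister chromatids part and ends mitosis. Many of the genes for kinetochore and checkpoint proteins are transcribed mainly late in the cell cycle of dividing cells, whereas the subunits of the APC/C are expressed through the whole cycle. Here 67 genes of this machinery were taken from the 28141 genes of an RNA sequencing table by symbol alone: all those starting with Cenp (20 genes) or Anapc (11 genes), and 36 named kinetochore, checkpoint, APC/C and anaphase genes. The rule itself uses symbols and no measured value, but the set was proposed with results of these data in view.

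The cells were leukaemia cells from the bone marrow of C57BL/6 mice, called LSCs in the labels of a study on leukaemia stem cells and chronic myeloid leukaemia. There were 2 libraries of wild-type cells (WT) and 2 in which Ybx1 had been knocked out conditionally (Ybx1 cKO). Ybx1 is a gene for a Y-box protein that binds DNA and RNA, and the comparison describes which transcript levels differ between the 2 genotypes. The Cre driver, the deleted exons, the leukaemia-causing allele, the age of the mice and any pooling of animals are not given in the sources used here. The labels do not tie replicates to separate animals, and the p-values then rest on a spread that may be purely technical. Values are log2 levels, obtained by multiplying the deposited log-scale scores by 0.693 because that reading brought the replicate spread closest to counting noise. Read as plain log2, every log2 fold change would be 1.44 times as large, with the same p-values. A gene was called changed at a limma adjusted p under 0.05, adjusted over all 15527 genes tested, and fold changes are cKO relative to WT. Each SE is the moderated value of limma, drawn toward the usual spread of genes at a similar level. It is not the replicate spread of the gene alone. Where 1 library is left out below, a group holds a single library, and a call lost there is a caution only.

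Ybx1 itself had log2 levels of 9.31 and 9.41 in WT and 8.19 and 8.13 in cKO. It was lower in both cKO libraries (log2 fold change -1.20, adjusted p = 1.1e-11 by limma, SE 0.08). Of the 4 leukaemia, stem and progenitor markers listed, Ly6a and Cd48 were analysed. Their levels summed to between 70.7 and 71.3 per 1000000 of the library sum in WT and between 57.3 and 63.1 in cKO. Most of that sum was Cd48, which did not pass (log2 fold change -0.05, SE 0.07), while Ly6a fell with -0.69 (SE 0.20). Such sums carry the library-sum scaling, under which cKO values come out lower. Kit and Cd34, and the 8 neutrophil markers listed, were not analysed here. The 5 monocyte and macrophage markers summed to between 6603 and 6715 on that scale in WT and between 10510 and 10550 in cKO. Most of that difference was Lyz2, at a mean of 1128 in WT and 4910 in cKO, and Cd14 and Cd68 also rose. Adgre1 passed as a rise with a log2 fold change of 0.09 (SE 0.01) but was lower per library sum, at 5215 and 5094, and Csf1r did not pass. Of the 6 erythroid markers Tfrc was analysed, at 65.6 to 73.8 in WT and 44.4 to 45.03 in cKO, and of the 5 T and NK cell markers Gzmb, at 82.2 to 84.2 and 25.7 to 30.9. The B cell marker Cd79b, 1 of 4 listed, stood at 21.98 to 23.9 and 24.1 to 26.4. The 2 analysed of 3 megakaryocyte markers summed to 355 to 369 and 341 to 355, although Pf4 rose with a log2 fold change of 0.68 (SE 0.05) and Itga2b fell with -0.21 (SE 0.04). The 3 analysed of 4 stromal and endothelial markers summed to 448 to 469 and 230 to 238, nearly all of it Pecam1, which fell with a log2 fold change of -0.85 (SE 0.04). Col1a1 and Cdh5 stood below 1 in both groups. All 11 proliferation markers fell, and the median of their log2 fold changes was -1.04. Of these genes, Top2a, the topoisomerase that untangles chromosomes, had -1.48 (SE 0.05), the proliferation antigen gene Mki67 -1.35 (SE 0.15) and the replication clamp gene Pcna -0.44 (SE 0.04). In bulk RNA, a smaller share of dividing cells and less of a transcript in each dividing cell cannot be told apart. The part of these marker shifts in the results that follow was not tested.

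Most transcripts of the kinetochore and checkpoint were lower in Ybx1 cKO, while those of the APC/C subunits went both ways. Of the 67 genes, 66 passed the filter on low values, each with a score of at least 1 in every library. The pseudogene Anapc15-ps did not pass. Of the 66, 43 fell and 7 rose, where 17.8% of all tested genes fell and 19.5% rose. The counts by role below are to be read against these shares, and no role was tested as a set. At least a 2-fold fall was seen for 20 of them, where 3.1% of all tested genes fell that far. The median log2 fold change of the 66 was -0.57, against 0.003 over all tested genes. Both cKO libraries lay below both WT libraries for 53 of the 66 genes, where 32.4% of all tested genes did so, and above them for 9, where 32.7% did. With 2 libraries against 2 such an order is common, so genes described below as not overlapping are not singled out by it. Ordered by log2 fold change, the largest called falls were those of Cenpi, Cenpf, Cenpk, Cenpm, Ube2c and Espl1, and the largest called rise was that of Zwint.

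**Figure D1:**
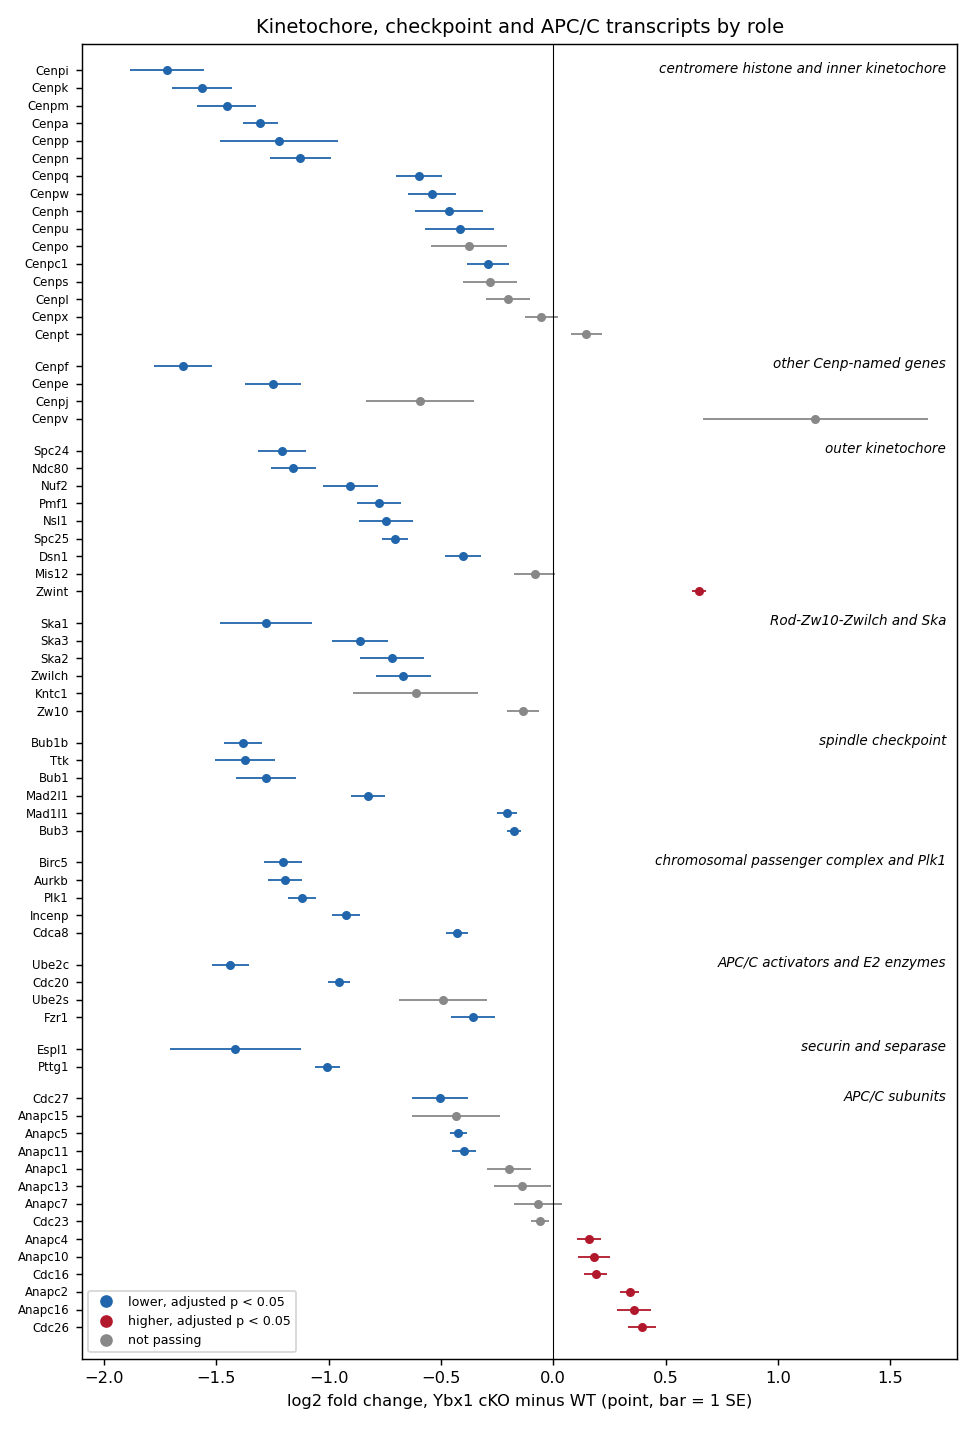
Log2 fold change (Ybx1 cKO minus WT, horizontal axis) of the 66 tested genes, grouped by role, with bars of 1 moderated SE from limma. Blue points fell, red points rose and grey points did not pass an adjusted p of 0.05. The points of the kinetochore, checkpoint and passenger groups lie mostly left of 0, Zwint lies at 0.65, and the APC/C subunits lie on both sides.

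From general knowledge of dividing human cells, 19 of these genes were listed as peaking in G2 or mitosis: Cenpa, Cenpe, Cenpf, Bub1, Bub1b, Ttk, Plk1, Aurkb, Birc5, Cdca8, Cdc20, Ube2c, Pttg1, Espl1, Ndc80, Nuf2, Spc25, Ska1 and Ska3. The list was drawn up with results of these data in view, so the counts are a description and no independent evidence of its direction. All 19 fell, with a median of -1.20 and a range from -1.65 for Cenpf to -0.43 for Cdca8. Of the other 47 tested genes 24 fell and 7 rose, with a median of -0.40, where 17.8% of all tested genes fell and 19.5% rose. Falls of 2-fold or more were called for 14 of the 19 and for 6 of the 47.

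**Figure D2:**
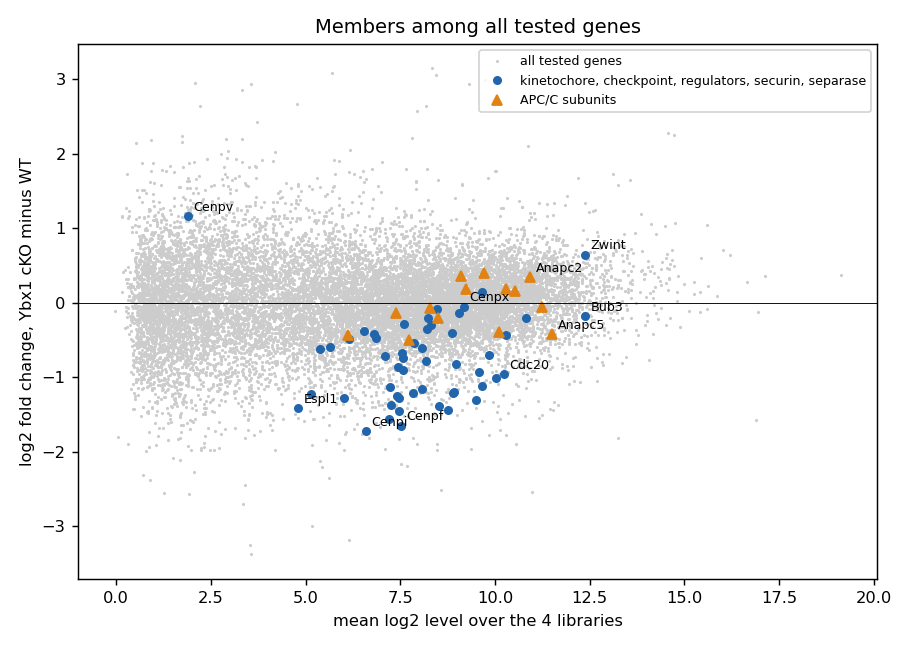
Mean log2 level over the 4 libraries (horizontal axis) against log2 fold change (vertical axis) for all tested genes (grey), the APC/C subunits (orange triangles) and the other genes described here (blue circles). Cenpi and Cenpf lie near the lower edge of the cloud, and Zwint, at 0.65, is the highest of the well-expressed members.

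Promoters were searched for short elements as a description, with no test. The cell cycle homology region (CHR) is a known element of genes transcribed in G2 and mitosis, and the pentamer CCAAT is the core of the Y box, after which Y-box proteins were named. Only the bare pentamer was searched and no longer Y-box sequence. The name Y-box core therefore stands for these letters here and not for a site of Ybx1. Windows from 250 bases before to 50 bases after the start were taken from RefSeq on GRCm38.p6 and were found for 59 of the 67 genes. The 8 without one were Anapc15-ps, Aurkb, Cdc23, Incenp, Nsl1, Ska1, Spc24 and Zwilch. Matches were counted on both strands, and those of different elements could share bases. The CHR letters TTTGAA or the variant TTCGAA were present for 18 of the 37 genes that fell (48.6%), 1 of the 7 that rose (14.3%) and 5 of the 15 others (33.3%), where 17.5% of the 10601 tested genes with a window held one. CCAAT was present for 28 of the 37 that fell (75.7%), 2 of the 7 that rose (28.6%) and 4 of the 15 others (26.7%), against 42.9% of tested genes. Both elements occurred in the windows of 16 genes that fell (43.2%), against 7.24% of tested genes and 10.2% of the 2162 tested genes with a window that fell. Counted over all 27025 genes with a window, tested or not, 21.7% held TTTGAA or TTCGAA, 41.1% held CCAAT and 8.61% held both. Another element, bound by E2F factors, was searched as TTTGGCGC, TTTCGCGC or TTCCCGCC. It was present for 4 of the 37 that fell (10.8%), 0 of the 7 that rose and 3 of the 15 others. The shares were 6.23% of tested genes and 9.11% of the 2162 tested genes with a window that fell. These E2F shares rest on few of the described genes, and the differences between them were not tested. All of these elements are matches of letters and not measured binding sites, and what binds them in these cells was not tested.

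The 120 bases before the start are given 5′ to 3′ for 4 genes that fell and held both elements in that stretch, and for 2 that rose, chosen after their values were seen. Capitals mark the CHR, written TTTGAA, and the Y-box core, written CCAAT, on either strand.
Cdc20: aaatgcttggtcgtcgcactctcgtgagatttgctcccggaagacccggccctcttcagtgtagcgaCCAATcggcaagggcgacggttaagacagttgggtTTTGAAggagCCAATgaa
Ube2c: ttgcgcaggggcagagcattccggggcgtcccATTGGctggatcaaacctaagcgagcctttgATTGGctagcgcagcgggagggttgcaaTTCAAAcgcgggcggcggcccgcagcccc
Espl1: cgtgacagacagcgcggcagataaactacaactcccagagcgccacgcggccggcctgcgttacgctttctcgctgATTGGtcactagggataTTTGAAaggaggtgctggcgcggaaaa
Cenpn: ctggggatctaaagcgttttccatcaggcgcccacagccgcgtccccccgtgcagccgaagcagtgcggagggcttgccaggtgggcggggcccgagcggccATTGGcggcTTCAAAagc
Zwint: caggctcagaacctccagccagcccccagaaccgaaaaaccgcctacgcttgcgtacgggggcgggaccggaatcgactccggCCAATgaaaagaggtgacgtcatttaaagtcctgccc
Anapc2: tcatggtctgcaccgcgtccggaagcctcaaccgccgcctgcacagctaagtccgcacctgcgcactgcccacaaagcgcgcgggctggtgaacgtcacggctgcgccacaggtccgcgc
These stretches lie in GRCm38.p6 at chr4:118437344-118437463 (minus strand) for Cdc20, chr2:164769809-164769928 (plus strand) for Ube2c, chr15:102296173-102296292 (plus strand) for Espl1, chr8:116921620-116921739 (plus strand) for Cenpn, chr10:72654726-72654845 (plus strand) for Zwint and chr2:25272346-25272465 (plus strand) for Anapc2. Cdc20 and Ube2c hold 2 Y-box cores and 1 CHR each, Espl1 and Cenpn hold 1 of each element, Zwint holds 1 CCAAT alone, and Anapc2 holds neither element.

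**Figure D3:**
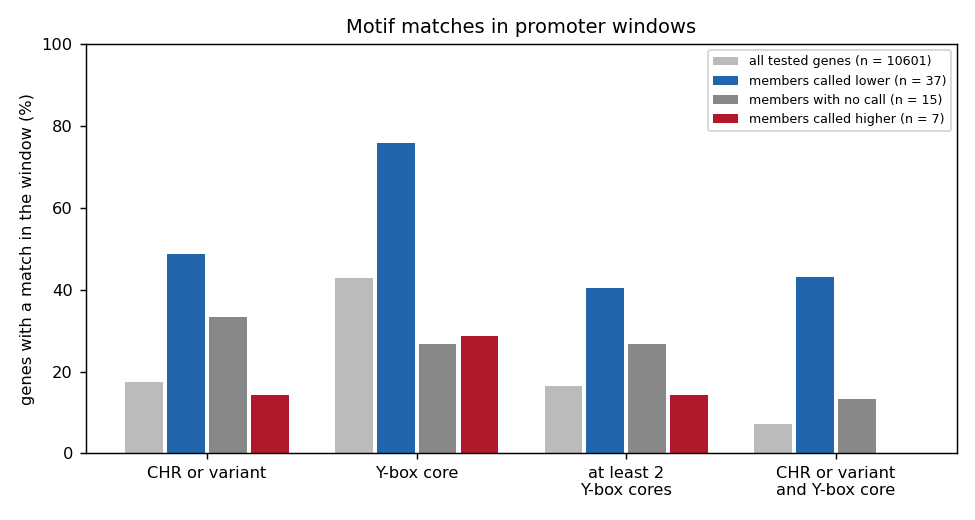
Share of genes (percent, vertical axis) whose promoter window holds the CHR or its variant, the Y-box core, at least 2 Y-box cores, or both elements, for all tested genes and for the genes described here by call. The genes that fell stand highest in each set, at 48.6%, 75.7%, 40.5% and 43.2%.

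Inner kinetochore proteins sit on the centromere throughout the cycle, around nucleosomes that hold the histone variant CENP-A. Of 16 genes of this group 11 fell and 5 did not pass, with a median of -0.50, where 17.8% of all tested genes fell. Cenpa, which encodes that histone variant and lies on chromosome 5 from 30666777 to 30674830 in GRCm38, had log2 levels of 10.18 and 10.14 in WT and 8.69 and 9.02 in cKO (log2 fold change -1.30, adjusted p = 1.7e-12 by limma, SE 0.08). Both cKO libraries stood more than 1 unit below both WT libraries, and the cKO pair differed from each other by more than the WT pair did. Cenpk had 7.95 and 8.01 in WT and 6.38 and 6.44 in cKO (log2 fold change -1.56, adjusted p = 9.1e-10 by limma, SE 0.13), a 2.96-fold fall. For Cenpm the levels were 8.15 and 8.23 in WT and 6.58 and 6.88 in cKO (log2 fold change -1.46, adjusted p = 1.8e-09 by limma, SE 0.13). Cenpi, on chromosome X from 134308084 to 134362639, had the largest fall of the 67 genes, with 7.40 and 7.51 in WT and 5.73 and 5.75 in cKO (log2 fold change -1.72, adjusted p = 6.4e-09 by limma, SE 0.17). In each of these genes the 2 groups stood far apart relative to the gap between replicates.

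CENP-H, I, K and M form one subcomplex of the inner kinetochore, yet the transcript of Cenph fell by less, with -0.47 (SE 0.15, limma adjusted p = 0.018). With WT replicate 2 left out it no longer passed (adjusted p = 0.21). Other subcomplexes were uneven as well, although differences between subunits were not tested. Cenpn, whose protein reads the CENP-A nucleosome, fell with -1.13 (SE 0.14), while its partner Cenpl had -0.20 (SE 0.10, limma adjusted p = 0.12) and did not pass. Among the genes of the CENP-O, P, Q and U subcomplex, Cenpp had -1.22 (SE 0.26), Cenpq -0.60 (SE 0.10) and Cenpu -0.42 (SE 0.15, limma adjusted p = 0.035), and Cenpo, at -0.38 (SE 0.17, limma adjusted p = 0.086), did not pass. Of the exon bases of Cenpu 26.7% overlap Primpol, of Cenpo 19.0% Adcy3 and of Cenpp 12.3% Ippk, each on the opposite strand; the part of those genes' reads was not tested. Cenpu no longer passed when 1 library was left out, with an adjusted p of 0.16 for WT replicate 1, 0.15 for WT replicate 2 and 0.081 for cKO replicate 2. The histone-fold genes Cenpt, Cenpw, Cenps and Cenpx, whose proteins form the DNA-binding arm that recruits the outer kinetochore, had a median of -0.17. Of these Cenpw fell, with -0.54 (SE 0.11), and the others did not pass. Cenpt had 9.60 and 9.59 in WT and 9.85 and 9.64 in cKO, so that both cKO libraries were slightly higher (log2 fold change 0.15, adjusted p = 0.091 by limma, SE 0.07). Without cKO replicate 2 the log2 fold change of Cenpt was 0.25, and without cKO replicate 1 it was 0.04. Cenpx overlapped between groups, with 9.27 and 9.16 in WT and 9.12 and 9.21 in cKO (log2 fold change -0.05, adjusted p = 0.62 by limma, SE 0.07). Cenpc1, which links CENP-A to the outer layer, fell with -0.29 (SE 0.09, limma adjusted p = 0.016), and lost its call without WT replicate 2 (adjusted p = 0.22).

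**Figure D4:**
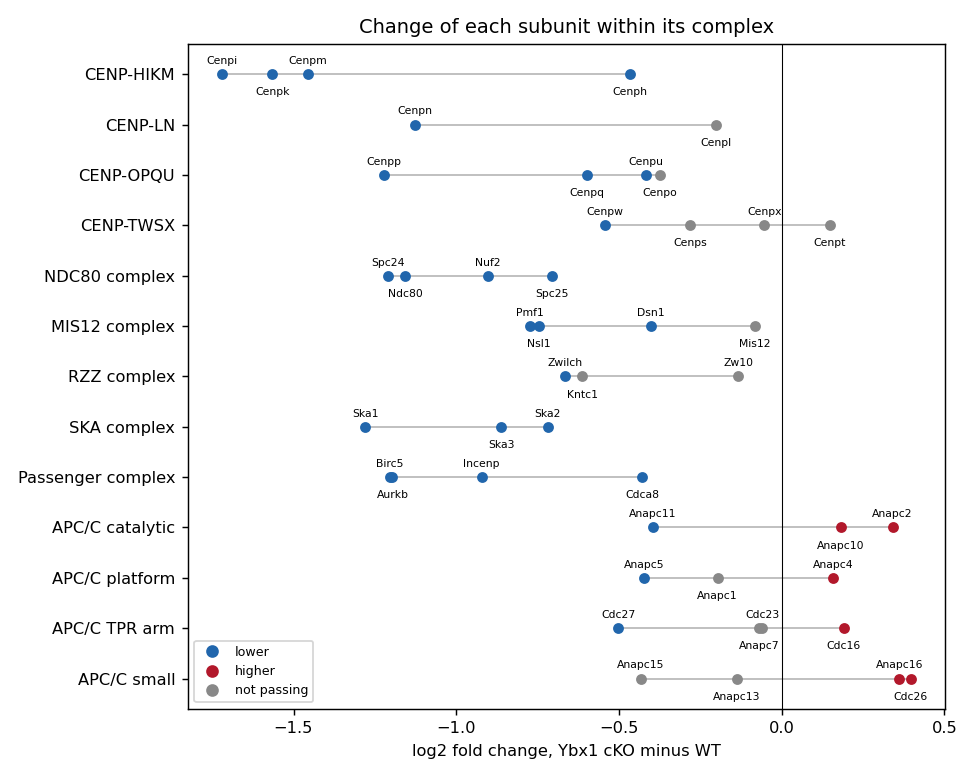
Log2 fold change (horizontal axis) of each subunit gene, in 13 complexes or subcomplexes (rows) with a grey line from the lowest to the highest subunit. Blue points fell, red rose and grey did not pass. CENP-H, I, K and M span from -1.72 to -0.47, the NDC80 complex from -1.21 to -0.70, and the 4 APC/C rows cross 0.

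Of the other genes named Cenp, the 2 that serve the outer kinetochore in mitosis fell. Cenpf, a large microtubule-binding protein gene, had log2 levels of 8.31 and 8.35 in WT and 6.83 and 6.54 in cKO (log2 fold change -1.65, adjusted p = 1.4e-10 by limma, SE 0.13), a 3.14-fold fall. Cenpe, the kinesin that carries chromosomes to the spindle equator, had 8.05 and 8.03 in WT and 6.76 and 6.83 in cKO (log2 fold change -1.25, adjusted p = 1.2e-08 by limma, SE 0.12). For both genes the lowest WT library exceeded the highest cKO library by more than 1 unit. Cenpj, which builds centrioles, did not pass, with 5.93 and 5.97 in WT and 5.08 and 5.63 in cKO (log2 fold change -0.59, adjusted p = 0.054 by limma, SE 0.24). Without cKO replicate 2, its higher cKO library, the log2 fold change was -0.87, and without cKO replicate 1 it was -0.32. Cenpv stood near the bottom of the scale at 0.79 and 1.85 in WT and 2.59 and 2.38 in cKO (log2 fold change 1.17, adjusted p = 0.073 by limma, SE 0.50). Its log2 fold change was 1.69 without WT replicate 2 and 0.64 without WT replicate 1.

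The outer kinetochore grips microtubules through the NDC80 complex, which the MIS12 complex holds to the inner layer. Of 9 genes 7 fell, 1 rose and 1 did not pass, with a median of -0.75. All 4 NDC80 complex genes fell. Ndc80 had 8.73 and 8.59 in WT and 7.57 and 7.44 in cKO (log2 fold change -1.16, adjusted p = 1.5e-09 by limma, SE 0.10), Spc24 -1.21 (SE 0.11) and Nuf2 -0.90 (SE 0.12) as log2 fold changes. Spc25 had 10.20 and 10.19 in WT and 9.44 and 9.54 in cKO (log2 fold change -0.70, adjusted p = 5.4e-10 by limma, SE 0.06) and fell by less than its dimer partner Spc24. The replicates of each of these genes lay close together and the groups did not overlap. Of all tested genes 32.4% had both cKO libraries below both WT libraries.

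Scaled by exon length, the 4 subunits stood at different levels even though their proteins assemble in equal numbers. Per 1000 exon bases and 1000000 of the library sum, Spc25 stood at 33.0 ± 0.0431 in WT and 18.6 ± 0.883 in cKO (mean ± SD, n = 2 each). Spc24 came next at 12.2 ± 0.356 in WT and 4.82 ± 0.00481 in cKO (mean ± SD, n = 2 each), followed by Ndc80 at 5.62 ± 0.348 in WT and 2.31 ± 0.148 in cKO (mean ± SD, n = 2 each). Nuf2 was lowest, at 3.69 ± 0.324 in WT and 1.81 ± 0.134 in cKO (mean ± SD, n = 2 each). The order of the 4 levels was the same in both genotypes. These levels carry the library-sum scaling, under which cKO values come out lower, and the order depends on the annotated exon lengths. Without that division Ndc80 stood above Spc24 in WT, at 36.49 and 31.25 per 1000000 of the library sum.

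Zwint was the exception of the outer kinetochore. It encodes a protein that binds KNL1 and helps to recruit the RZZ complex, which consists of the proteins of Kntc1, Zw10 and Zwilch. Its log2 levels were 12.03 and 12.07 in WT and 12.69 and 12.70 in cKO (log2 fold change 0.65, adjusted p = 1.0e-14 by limma, SE 0.03), a 1.57-fold rise. Both cKO libraries lay above both WT libraries by far more than the replicates of either group differed. The gene lies on chromosome 10 from 72654845 to 72674964 in GRCm38. In level per exon length Zwint was the highest of the 67 genes, at 86.0 ± 2.09 in WT and 124 ± 0.497 in cKO (mean ± SD, n = 2 each). Knl1, a listed partner of the kinetochore outside the symbol rule, moved the other way, with log2 levels of 8.74 and 8.75 in WT and 6.93 and 6.91 in cKO (log2 fold change -1.82, adjusted p = 9.5e-13 by limma, SE 0.11). Zwint was also the single rise among the 7 that kept its call and direction under every refit and under a threshold of 0.01.

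Genes of the MIS12 complex had a median of -0.57, against -1.03 for the NDC80 complex. Pmf1 had -0.77 (SE 0.10), Nsl1 -0.75 (SE 0.12) and Dsn1 -0.40 (SE 0.08), all called, though Dsn1 no longer passed when the prior variance was held constant over levels (adjusted p = 0.071). Mis12 itself had 8.57 and 8.44 in WT and 8.50 and 8.35 in cKO, with overlapping groups (log2 fold change -0.08, adjusted p = 0.53 by limma, SE 0.09). The difference between the 2 complexes was not tested.

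The RZZ complex delivers checkpoint proteins and the motor dynein to kinetochores, and the SKA complex steadies their hold on microtubules. Of 6 genes 4 fell and 2 did not pass, with a median of -0.69. Ska1 had 6.59 and 6.70 in WT and 5.26 and 5.47 in cKO (log2 fold change -1.28, adjusted p = 1.5e-05 by limma, SE 0.20), Ska3 had 7.79 and 7.95 in WT and 7.06 and 6.95 in cKO (log2 fold change -0.86, adjusted p = 5.0e-06 by limma, SE 0.13), and Ska2, also called, had a log2 fold change of -0.72 (SE 0.14). All 3 SKA genes fell, with both cKO libraries below both WT libraries, as in 32.4% of all tested genes. With a constant prior variance Ska2 no longer passed (limma adjusted p = 0.052). Zwilch fell, with 7.80 and 7.95 in WT and 7.18 and 7.24 in cKO (log2 fold change -0.67, adjusted p = 8.0e-05 by limma, SE 0.12). Zw10, which also serves vesicle transport between divisions, had 9.09 and 9.15 in WT and 8.99 and 8.99 in cKO and missed the threshold (log2 fold change -0.13, adjusted p = 0.16 by limma, SE 0.07). Kntc1, the Rod subunit, had 5.81 and 5.56 in WT and 4.62 and 5.52 in cKO (log2 fold change -0.61, adjusted p = 0.092 by limma, SE 0.28). Its second cKO library stood almost at the WT level. Without that library the log2 fold change was -1.06, and without cKO replicate 1 it was -0.17.

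**Figure D5:**
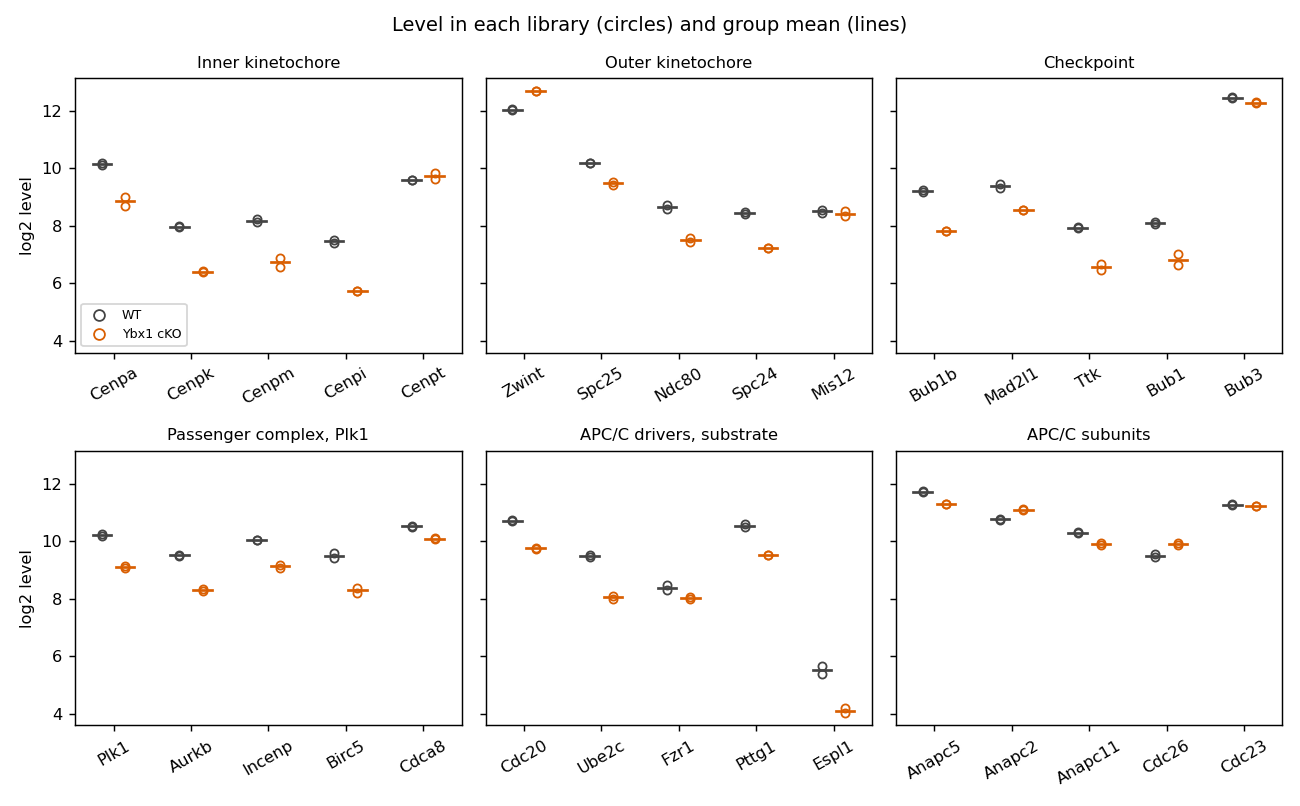
Log2 level of 30 genes in each library (circles; grey WT, orange Ybx1 cKO) with lines at the group means (n = 2 each), in panels by role. Bub1b, Ttk, Bub1 and Mad2l1 stand lower in both cKO libraries, Zwint stands higher, and the libraries of Bub3 and Cdc23 lie close together.

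Spindle checkpoint genes all fell, by unequal amounts, although differences between them were not tested. The 6 genes had a median of -1.05, with Bub1b falling most and Bub3 least. Bub1b encodes BubR1, the inhibitor that binds Cdc20 within the mitotic checkpoint complex, and lies on chromosome 2 from 118598211 to 118641591 in GRCm38. Its levels were 9.24 and 9.17 in WT and 7.82 and 7.83 in cKO (log2 fold change -1.38, adjusted p = 2.7e-12 by limma, SE 0.09), a 2.60-fold fall. The kinase gene Ttk, whose product Mps1 starts the checkpoint signal, had 7.96 and 7.92 in WT and 6.48 and 6.66 in cKO (log2 fold change -1.37, adjusted p = 8.4e-09 by limma, SE 0.13). Bub1, the kinase that brings the inhibitors to the kinetochore, had -1.28 (SE 0.13). These 3 fell more than 2-fold. Both their cKO libraries lay below both WT libraries, as in 32.4% of all tested genes. Mad2l1, which encodes the Cdc20-binding protein Mad2, had 9.45 and 9.33 in WT and 8.56 and 8.56 in cKO (log2 fold change -0.82, adjusted p = 2.8e-09 by limma, SE 0.08).

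The other 2 checkpoint genes fell by little. Bub3, which carries Bub1 and BubR1 to the kinetochore, had 12.49 and 12.45 in WT and 12.29 and 12.30 in cKO (log2 fold change -0.17, adjusted p = 4.5e-05 by limma, SE 0.03), a 1.13-fold fall. Mad1l1, which holds Mad2 at unattached kinetochores, had 10.92 and 10.90 in WT and 10.73 and 10.68 in cKO (log2 fold change -0.21, adjusted p = 5.2e-04 by limma, SE 0.04). The libraries of neither gene overlapped between groups, as in 32.4% of all tested genes in that direction, although the 2 pairs lay close together. Both calls were lost when the prior variance was held constant over levels (adjusted p = 0.17 for Bub3 and adjusted p = 0.13 for Mad1l1). Bub3 was the best expressed of the 6 per exon length, at 72.8 ± 1.22 in WT and 59.1 ± 0.334 in cKO (mean ± SD, n = 2 each).

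The chromosomal passenger complex corrects faulty attachments through the kinase Aurora B, and Plk1 is the kinase that acts beside it from mitotic entry to exit. All 5 genes fell, with a median of -1.12. Plk1 had 10.20 and 10.26 in WT and 9.15 and 9.06 in cKO (log2 fold change -1.12, adjusted p = 3.0e-13 by limma, SE 0.06), a 2.17-fold fall on chromosome 7 from 122159439 to 122169873 in GRCm38. Aurkb, the gene for Aurora B, had 9.52 and 9.49 in WT and 8.28 and 8.33 in cKO (log2 fold change -1.20, adjusted p = 3.6e-12 by limma, SE 0.08). Incenp, the scaffold of the complex, had 10.06 and 10.04 in WT and 9.18 and 9.08 in cKO (log2 fold change -0.92, adjusted p = 1.4e-11 by limma, SE 0.06). The 2 pairs of libraries stood well apart in all 3 genes, furthest in Aurkb and least in Incenp. Birc5, whose product survivin targets the complex to the centromere, had -1.20 (SE 0.08), close to Aurkb. Cdca8, the gene for borealin, moved least, with -0.43 (SE 0.05).

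The APC/C needs an activator that brings its substrates and 2 ubiquitin-conjugating enzymes (E2) that start and extend the ubiquitin chain. Of these 4 genes 3 fell and 1 did not pass. Cdc20, the activator of early mitosis, had 10.73 and 10.70 in WT and 9.74 and 9.78 in cKO (log2 fold change -0.95, adjusted p = 1.6e-13 by limma, SE 0.05). Ube2c, the chain-starting E2, had 9.52 and 9.45 in WT and 7.99 and 8.11 in cKO (log2 fold change -1.44, adjusted p = 4.3e-13 by limma, SE 0.08), a 2.71-fold fall. Of its exon bases 22.8% overlap Tnnc2 on the opposite strand, and the sources used here do not say whether strand was used in counting. Fzr1, the gene for Cdh1, which activates the APC/C from mitotic exit through G1, had 8.47 and 8.30 in WT and 7.996 and 8.07 in cKO (log2 fold change -0.36, adjusted p = 0.0054 by limma, SE 0.10), and lost its call without WT replicate 1 (adjusted p = 0.13). Ube2s, the chain-extending E2, had 6.25 and 6.53 in WT and 5.88 and 5.92 in cKO and missed the threshold (log2 fold change -0.49, adjusted p = 0.054 by limma, SE 0.20). The log2 fold changes of Cdc20 and Ube2c were larger than those of Fzr1 and Ube2s, a difference that was not tested.

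Securin, the product of Pttg1, is destroyed by the APC/C to free separase, the product of Espl1, which cuts cohesin. Both genes fell. Pttg1 had 10.48 and 10.59 in WT and 9.53 and 9.54 in cKO (log2 fold change -1.01, adjusted p = 3.2e-13 by limma, SE 0.06), a 2.01-fold fall on chromosome 11 from 43420250 to 43426251 in GRCm38. Espl1 had 5.67 and 5.36 in WT and 4.18 and 4.02 in cKO (log2 fold change -1.42, adjusted p = 3.5e-04 by limma, SE 0.29), a 2.67-fold fall. Its replicates were further apart than those of Pttg1. Its moderated SE was larger too, but that value also reflects the lower level of Espl1. Per exon length Pttg1 stood at 66.9 ± 3.82 in WT and 30.6 ± 0.0860 in cKO (mean ± SD, n = 2 each) and Espl1 at 0.473 ± 0.0692 in WT and 0.162 ± 0.0129 in cKO (mean ± SD, n = 2 each).

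Genes for the subunits of the APC/C itself did not move together. Of 15 such rows 14 were tested, of which 3 fell, 6 rose and 5 did not pass, with a median of -0.06, near the 0.003 of all tested genes. The called share, 9 of 14, stands beside 37.4% of all tested genes called in either direction. None of the 14 reached a 2-fold change. After scaling to equal library sums, chosen after the data were seen, the split turned to 6 falls and 3 rises. That scaling moved the median log2 fold change of all tested genes from 0.003 to -0.12. Anapc16, Anapc2 and Cdc26 still rose under it.

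In the catalytic core the scaffold and the RING finger subunit moved in opposite directions. Anapc2, the cullin, had 10.75 and 10.78 in WT and 11.08 and 11.13 in cKO (log2 fold change 0.34, adjusted p = 5.0e-07 by limma, SE 0.04), and lies on chromosome 2 from 25272478 to 25285915 in GRCm38. Anapc11, the RING subunit that binds the E2 enzymes and pairs with it, had 10.31 and 10.28 in WT and 9.86 and 9.94 in cKO (log2 fold change -0.40, adjusted p = 1.9e-06 by limma, SE 0.05). Neither gene's libraries overlapped between groups, and the replicates of both lay close together. Both calls were lost when the prior variance was held constant over levels (adjusted p = 0.061 for Anapc2 and adjusted p = 0.056 for Anapc11). Anapc10, which helps to bind substrates, had 9.19 and 9.09 in WT and 9.27 and 9.37 in cKO (log2 fold change 0.18, adjusted p = 0.048 by limma, SE 0.07). That rise no longer passed when 1 library was left out, with an adjusted p just above 0.05 for WT replicate 1, and of 0.34 for WT replicate 2 and 0.22 for cKO replicate 2. With equal library sums its log2 fold change was 0.06 (adjusted p = 0.58).

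Among the platform subunits Anapc5 fell, with 11.75 and 11.71 in WT and 11.31 and 11.30 in cKO (log2 fold change -0.42, adjusted p = 1.1e-09 by limma, SE 0.04), and it kept its call under all the refits that were run. Anapc4 had 10.50 and 10.39 in WT and 10.66 and 10.55 in cKO (log2 fold change 0.16, adjusted p = 0.018 by limma, SE 0.05), a rise that no longer passed with WT replicate 2 left out (adjusted p = 0.25), with cKO replicate 1 left out (adjusted p = 0.16), under quantile normalization (adjusted p = 0.13) or with equal library sums (log2 fold change 0.03, adjusted p = 0.65). Anapc1, the largest subunit, had 8.48 and 8.69 in WT and 8.49 and 8.29 in cKO (log2 fold change -0.20, adjusted p = 0.12 by limma, SE 0.10), with overlapping groups. With 1 library left out its log2 fold change was -0.30 without WT replicate 1 and -0.09 without WT replicate 2. It was -0.295 without cKO replicate 1 and -0.10 without cKO replicate 2.

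The arm of tetratricopeptide subunits, which receives the activators, was also mixed. Cdc27 fell with -0.50 (SE 0.12, limma adjusted p = 0.0022), a call lost when the prior variance was held constant over levels (adjusted p = 0.13). Cdc16 had 10.16 and 10.22 in WT and 10.37 and 10.40 in cKO (log2 fold change 0.19, adjusted p = 0.0045 by limma, SE 0.05), a rise lost without WT replicate 1 (adjusted p = 0.069) and with equal library sums (log2 fold change 0.07, adjusted p = 0.35). Cdc23 had 11.29 and 11.26 in WT and 11.21 and 11.21 in cKO and missed the threshold (log2 fold change -0.06, adjusted p = 0.25 by limma, SE 0.04). It passed as a fall under quantile normalization (log2 fold change -0.16, adjusted p = 2.1e-03) and with equal library sums (log2 fold change -0.18, adjusted p = 2.7e-04). Of its exon bases 13.4% overlap Kif20a, a mitotic kinesin gene on the opposite strand that fell with -1.27 (SE 0.09). The part of those reads in the value of Cdc23 was not tested. Anapc7 had -0.07 (SE 0.11, limma adjusted p = 0.67).

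Of the small subunits Cdc26 rose, with 9.55 and 9.45 in WT and 9.85 and 9.94 in cKO (log2 fold change 0.40, adjusted p = 1.4e-05 by limma, SE 0.06). Anapc16 rose too, with 8.96 and 8.88 in WT and 9.35 and 9.21 in cKO (log2 fold change 0.36, adjusted p = 3.8e-04 by limma, SE 0.07). In both genes each cKO library stood above each WT library, as in 32.7% of all tested genes. Both calls were lost when the prior variance was held constant over levels (adjusted p = 0.067 for Cdc26 and adjusted p = 0.088 for Anapc16). Anapc13 had -0.14 (SE 0.13, limma adjusted p = 0.45) and Anapc15 -0.43 (SE 0.20, limma adjusted p = 0.089). Of the exon bases of Anapc15, 38.4% overlap Tomt on the opposite strand, and 399 bases of its transcript match the pseudogene Anapc15-ps at 98.2% identity, so its reads could be split. The same holds for Anapc10, which matches Gm15530 over 553 bases at 97.3% identity, and for Cdc26, which matches Gm9174 over 255 bases at 98.8%; both copies lay below the filter. Anapc15-ps, below the filter, had levels of -1.10 and -0.77 in WT and -1.06 and -1.08 in cKO.

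Genes that work with this machinery but fall outside the symbol rule were counted from 3 lists, to be read against the 17.8% of all tested genes that fell and the 19.5% that rose. The share that rose lay close to that background in the cohesin list, below it in the partner list and above it in the regulator list. None of these differences was tested. Of 15 tested centromere-loading and kinetochore partners 9 fell and 2 rose, with a median of -0.61. Besides Knl1, they included Hjurp, the chaperone that loads CENP-A, with -1.02 (SE 0.08, limma adjusted p = 8.2e-11), and Kif2c, a kinesin that takes apart wrongly attached microtubules, with -1.41 (SE 0.11, limma adjusted p = 2.9e-10). Of 21 regulators of the checkpoint and the APC/C 14 fell and 6 rose, with a median of -0.50. The mitotic cyclin gene Ccnb1, itself an APC/C substrate, had -1.30 (SE 0.05, limma adjusted p = 9.2e-17), the spindle assembly gene Tpx2 -0.95 (SE 0.05, limma adjusted p = 4.6e-13) and the mitotic kinase gene Cdk1 -1.03 (SE 0.06, limma adjusted p = 5.9e-13). One of the rises was that of Ppp2r5c, a B56 subunit gene of the phosphatase PP2A, which opposes checkpoint kinases, with 0.53 (SE 0.03, limma adjusted p = 4.9e-12), named after its value was seen. Of 16 cohesin genes, for the ring that separase cuts and its loaders and guards, 9 fell and 3 rose, with a median of -0.34. Mau2, which loads cohesin, rose with 0.87 (SE 0.04, limma adjusted p = 8.9e-15), while the ring subunit Smc1a had -0.41 (SE 0.04, limma adjusted p = 3.9e-09) and sororin, encoded by Cdca5, -0.61 (SE 0.07, limma adjusted p = 5.0e-08).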

How the data were processed

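RNA sequencing of polyA RNA gave 2 WT and 2 Ybx1 cKO libraries. Reads were processed with CASAVA, HISAT2 2.1.0, featureCounts and DESeq2 on GRCm38, per the submitters' processing notes. The deposited table holds a log-scale score for each gene and library, whose base and transformation are not given in the sources used here. Scores were multiplied by 0.693, the reading under which the spread between replicates was nearest to counting noise (observed over Poisson SD, median 1.10 in WT and 1.31 in cKO, against 4.83 and 5.90 for plain log2). Sequencing depth is unknown. Back-transformed levels summed to 11157952 and 11074317 in WT and to 12104617 and 12134026 in cKO. No column was left out.

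The groups were compared with limma 3.58.1 in R 4.3.3 (lmFit, then eBayes with a trend), on genes whose score reached 1 or more in 2 or more libraries, with Benjamini-Hochberg adjustment over all of them. With 2 libraries against 2 an exact permutation test cannot go below p = 0.333. Same-numbered libraries did not deviate together (r = 0.01 across 15527 genes, which are not independent replicates), so no block was used. Levels per exon length were divided by all annotated exon bases of a gene, merged over its transcripts, from GENCODE M21. Near copies were found with BLAST 2.17.0. Positions are GRCm38. Full values are given for the 3 called genes of each role with the smallest p, every gene called higher and up to 2 well-expressed genes that did not pass; others were added where a sentence turns on them. The genes and lists were chosen with earlier results of these data known. Cenpb was not analysed here.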

Additional observations from a re-analysis of the deposited data

How the results depend on the processing

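Of the 50 called genes 34 kept their call and direction under every refit and at an adjusted p under 0.01, 33 that fell and Zwint. Leaving out each library in turn left 1 library in a group, so the spread of that group was not measured. For Cdc20 each of these refits gave a smaller adjusted p than the full fit, although fewer data were used. Calls kept in them, which the count of 34 includes, are therefore no replication. Across these refits the median log2 fold change of the described genes was -0.62 to -0.49. The median of the APC/C subunits, -0.06, ranged from -0.082 without WT replicate 2 to 0.013 without Ybx1 cKO replicate 1, where its sign turned. A prior variance without trend left 2267 changed genes, 33 falls and 1 rise. Requiring a 2-fold change left 854 genes, 20 falls and 0 rises by limma, with 1 gene (Cenpv) at least 2-fold higher at an unadjusted p under 0.05. Equal library sums, chosen after seeing the data, gave 54 falls, 4 rises and a median of -0.69, while the median of all tested genes moved to -0.12. Scores read as plain log2 gave a median of -0.82. With the replicate block, a pairing that the data did not show, 6026 genes changed, 45 of the described genes fell and 7 rose. The cause of these shifts was not tested. Other filters, normalizations and thresholds left 38 to 45 falls and 5 to 8 rises. Sequencing depth is unknown, so no counting interval can be given, and low genes such as Cenpv, Kntc1 and Espl1 carry the widest errors.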
